A study of Mus musculus with 9 samples.

Results

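The genes described here are 172 abundant liver genes whose values were repeatable between the p21KO mice of each diet, and the comparison is liver after 24 h of fasting against fed liver in mice without the cell cycle inhibitor p21. They were chosen by their measured values in the 4 p21KO libraries. A row of the deposited table was kept where all 4 libraries held at least 50 FPKM (fragments per kilobase of transcript, scaled to the number of mapped reads, and so a level per length of transcript) and where, within the fed pair and within the fasted pair, the higher value was at most 2 times the lower. Of 23746 rows, 191 held at least 50 FPKM in all 4 libraries and 172 of these, or 0.724% of all rows, met both conditions. This filter was needed because the columns of the table do not keep the same row order over its whole length, so that a gene name can stand beside the value of a neighbouring gene. The row named for albumin, the most abundant product of hepatocytes, held 3.45e-05 and 0.0177 FPKM in fed and 14.7 and 0 FPKM in fasted p21KO liver.

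Liver polyA+ RNA of C57Bl/6 mice was sequenced, 1 library per mouse, in 4 groups. Wild-type (WT) mice were fed ad libitum (3 mice) or fasted for 24 h (2 mice), and p21KO mice, which lack a functional Cdkn1a gene in every cell, were fed ad libitum (2 mice) or fasted for 24 h (2 mice). The methods of the study give the strain as C57BL6J/Ola.Hsd and name males and a standard chow, with water always present. The knockout is constitutive, and a difference in these whole livers cannot be assigned to loss of p21 in hepatocytes, nor can fewer cells of a type be told apart from less RNA per cell. Cdkn1a itself was not among the 172 genes. Its row held 0.260 and 0.437 FPKM in fed and 0.0919 and 2.27 FPKM in fasted p21KO liver. In WT liver it held 0.209, 0.166 and 0.0171 FPKM fed and 0 and 0.0704 FPKM fasted. Within each diet both p21KO livers were above every WT liver, so the row was not lower in the mice that lack the gene. The values are near 0 and the name of the row can be wrong, so it gave no check of the labels.

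During fasting the liver changes from storing fuel to supplying it. Glycogen is broken down, glucose is made from lactate, glycerol and amino acids, and fatty acids released by adipose tissue are oxidised in mitochondria and peroxisomes and partly turned into ketone bodies. Falling insulin and rising glucagon drive glucose output, whereas the nuclear receptor PPARα, which binds fatty acids, switches on genes of fatty acid oxidation.

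With 1 of the 4 columns moved by 3000 rows, which breaks the link between columns, the same filter kept from 4 to 7 rows. Moves by 1000 rows kept from 3 to 5 and moves by 6000 rows kept from 4 to 8. When both fasted columns were moved together by 3000 rows, 10 rows passed, and when both fed columns were moved, 7 passed. Thus the number of genes kept was far above what unmatched columns gave. Single names can still be wrong, since a name misplaced alike in all 4 columns would pass the filter. Just inside the lower limit were Fads1, whose lowest value was 50.1 FPKM, Eef1b2 and Bcap31 (both 51.0 FPKM), and just outside it were Shmt2, Pipox (both 49.7 FPKM) and Ptplad1 (49.97 FPKM). Just inside the limit on the spread were Mup5, whose values in the fed pair had a ratio of 1.94, Cyp2c37 with 1.81 and Mup21 with 1.73, and just outside it were Csad with 2.13 and Sardh and Rpl34 with 2.18. None of the 1459 rows named for olfactory and vomeronasal receptors, which liver does not express, was kept.

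Most of these genes were at similar levels in fed and fasted p21KO liver. The median ratio of mean FPKM, fasted over fed, was 0.967, the quartiles were 0.820 and 1.17, and the whole range ran from 0.281 to 4.28. A total of 15 genes were at least 1.5-fold higher and 20 at least 1.5-fold lower after fasting with no overlap between the fed and the fasted pair, and 137 met neither condition. Over the 14014 rows that reached 1 FPKM in 2 or more libraries, 14.9% were higher and 16.4% lower by this measure, against 8.72% and 11.6% of the selected genes. The selected genes had to repeat within each pair and the other rows did not, so nothing is read from the difference of these shares. Without the condition on the ratio, 43 genes (25% of 172, against 18.5% of all rows) did not overlap and were higher, 52 (30.2%, against 21.1%) did not overlap and were lower, and 77 overlapped. A comparison of 2 with 2 mice cannot give an exact permutation p below 0.333, and these values chose the genes, so they are given as a description with no test.

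**Figure D1:**
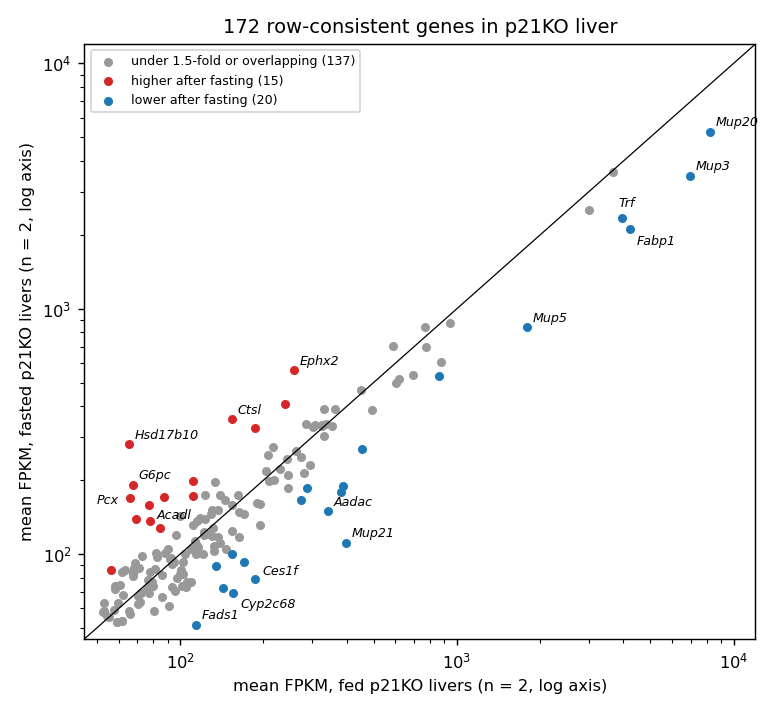
Mean FPKM of each of the 172 genes in fed (horizontal axis) and fasted (vertical axis) p21KO liver, 2 mice each, both axes logarithmic. The diagonal marks equal levels: 15 genes (red) lie at least 1.5-fold above it and 20 (blue) at least 1.5-fold below it with no overlap between the pairs, and Hsd17b10 (ratio 4.28) and Mup21 (ratio 0.281) lie farthest from it.

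The scale of the values bears on this split. The sum of all FPKM was 421345 and 440780 in fed and 349965 and 364309 in fasted p21KO liver, and dividing each column by its sum moved every fasted value up against fed by 0.27 on the log2 scale. On that scale the same filter gave 25 higher and 15 lower genes. Scaling by the 75th percentile of all rows, chosen after these values were seen, shifted the rows by 0.06 and gave 16 higher and 19 lower genes. Of the 172 genes as selected, 28 had a ratio of at least 1.5 upwards and 12 downwards after scaling to the column sum, and 16 and 17 after scaling to the 75th percentile.

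Of 31 rows in the list for gluconeogenesis and glycogen, 7 were among the 172 genes, of which 3 were at least 1.5-fold higher and 1 lower, with a median ratio of 1.19. G6pc, the catalytic subunit of glucose-6-phosphatase that releases free glucose, held 59.9 and 75.6 FPKM in fed and 203 and 180 FPKM in fasted liver, a ratio of 2.83. Slc37a4, the transporter that brings glucose-6-phosphate to that enzyme in the endoplasmic reticulum, held 64.3 and 73.7 FPKM in fed and 140 and 137 FPKM in fasted liver, a ratio of 2.01. Pcx, pyruvate carboxylase, which makes the oxaloacetate that enters gluconeogenesis, held 68.4 and 63.0 FPKM in fed and 152 and 186 FPKM in fasted liver, a ratio of 2.57. In each of these 3 genes both fasted p21KO livers were above both fed p21KO livers. Their rows did not meet the same limits in the WT libraries, so the name and the value can disagree there. Within 10 rows of Slc37a4, a row named Ccdc84 held fed values within 1.5-fold of the fasted level of Slc37a4. Pgam1 (ratio 1.19) and Pgk1 (1.18), glycolytic enzymes that also run in the direction of glucose synthesis, were slightly higher without overlap, and Fbp1, fructose-bisphosphatase, overlapped with 517 and 382 FPKM fed and 376 and 559 FPKM fasted. Khk, ketohexokinase, which begins the use of fructose, went the other way with 147 and 138 FPKM fed and 53.5 and 92.3 FPKM fasted, a ratio of 0.512.

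As deposited, the rows of the pair that forms the glucose-6-phosphatase system were at least 2-fold higher in fasted p21KO liver, and Hsd17b10 had the largest ratio. For this reason the promoters of these genes are shown. Each is the stretch of 250 bases directly before the RefSeq start site, read 5′ to 3′ on the gene's own strand, build GRCm38.p6, with AGGTCA or its reverse complement TGACCT, the core element bound by many nuclear receptors, in capitals. For Slc37a4, 3 start sites are listed and the stretch before the first is given.
G6pc, chr11:101367466-101367715, plus strand: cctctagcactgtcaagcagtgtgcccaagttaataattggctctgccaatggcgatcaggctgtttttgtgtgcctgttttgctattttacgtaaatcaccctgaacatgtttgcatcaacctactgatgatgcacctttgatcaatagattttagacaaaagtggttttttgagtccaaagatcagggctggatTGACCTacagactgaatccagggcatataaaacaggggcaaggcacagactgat
Slc37a4, chr9:44396696-44396945, plus strand: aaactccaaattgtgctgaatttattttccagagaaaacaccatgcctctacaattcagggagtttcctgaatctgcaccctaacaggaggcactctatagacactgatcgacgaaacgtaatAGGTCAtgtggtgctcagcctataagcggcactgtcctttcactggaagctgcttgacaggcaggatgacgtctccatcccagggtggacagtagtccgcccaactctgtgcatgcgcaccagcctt
Hsd17b10, chrX:152001646-152001895, plus strand: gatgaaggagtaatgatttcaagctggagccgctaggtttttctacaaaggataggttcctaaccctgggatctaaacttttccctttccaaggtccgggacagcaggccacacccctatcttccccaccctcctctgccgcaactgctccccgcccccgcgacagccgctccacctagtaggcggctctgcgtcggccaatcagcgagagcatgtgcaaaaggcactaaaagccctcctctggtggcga
The G6pc stretch holds these letters once, beginning at position -54 from the start, and the letters TATAAA at position -29. The Slc37a4 stretch holds the element once, at position -127, and the Hsd17b10 stretch does not hold it. On either strand, AGGTCA was found before at least 1 start of 3 of the 13 higher genes with a promoter in the table, of 5 of the 13 lower genes, of 35 of 141 of all selected genes, and of 15.8% of all 27025 genes. The letters TGACGTCA, which read the same on both strands and are bound by CREB, were found for 0 of 13 higher genes, 0 of 13 lower genes and 1.77% of all genes. These are matches of letters in a short window, with the promoters of 31 of the 172 genes not found by symbol.

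Of 66 rows in the list of fatty acid oxidation and PPARα targets 6 were selected, of which 4 were at least 1.5-fold higher and 1 lower. Over all rows, which did not have to repeat within pairs, 14.9% were higher and 16.4% lower by this measure. The median ratio of the 6 genes was 1.86, beside 0.967 for all 172 genes, and the list was not tested. Ephx2, soluble epoxide hydrolase, which opens fatty acid epoxides, had the tightest values of the higher genes: 271 and 247 FPKM in fed and 563 and 563 FPKM in fasted liver, a ratio of 2.18 (log2 ratio 1.12 ± 0.07, SE). Acadl, the mitochondrial dehydrogenase for long-chain acyl-CoA, held 84.9 and 69.5 FPKM fed and 185 and 132 FPKM fasted, a ratio of 2.06. Acaa1a, a thiolase of peroxisomal oxidation, held 91.0 and 83.7 FPKM fed and 163 and 177 FPKM fasted, a ratio of 1.95. Hsd17b4, the peroxisomal bifunctional enzyme that acts on the step before this thiolase, held 109 and 113 FPKM fed and 216 and 180 FPKM fasted, a ratio of 1.78. In all 4 genes both fasted livers were above both fed livers. Other rows within 10 held up to 644 FPKM near Ephx2, 1601 FPKM near Acadl, 521 FPKM near Acaa1a and 740 FPKM near Hsd17b4. The row of that value near Acadl was named Erbb4. Decr2, a peroxisomal reductase for unsaturated fatty acids, did not overlap but was only 1.23-fold higher. Fabp1, the abundant fatty acid carrier of the hepatocyte cytosol and itself a PPARα target, was the exception, with 4058 and 4364 FPKM in fed and 2683 and 1560 FPKM in fasted liver, a ratio of 0.504. None of the 7 rows named for genes of ketogenesis was among the 172 genes, and none of 9 PPARα targets and related genes chosen for RT-qPCR was either.

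The gene with the largest ratio of all was Hsd17b10, a mitochondrial dehydrogenase of isoleucine and steroid metabolism that is also a subunit of mitochondrial RNase P. It held 67.7 and 63.2 FPKM in fed and 321 and 239 FPKM in fasted liver, a ratio of 4.28 (log2 ratio 2.10 ± 0.22, SE). The highest other value of the 4 libraries within 10 rows of it was 38.9 FPKM, so no neighbouring row stood near its fasted level. Among the other higher genes, Ctsl, the lysosomal protease cathepsin L, held 174 and 135 FPKM fed and 384 and 325 FPKM fasted, a ratio of 2.30, and Ctsz, another lysosomal cathepsin, was 1.35-fold higher without overlap. Psmb4, a beta subunit of the proteasome core, held 86.3 and 82.5 FPKM fed and 145 and 111 FPKM fasted, a ratio of 1.51. Its fellow subunit Psmb3 was 1.23-fold higher without overlap, whereas the values of Psma4 overlapped. Ddt, a tautomerase related to macrophage migration inhibitory factor, had a ratio of 1.72, the membrane protein Tspan31 a ratio of 1.75, and Mosc1, a mitochondrial amidoxime reductase, and Pttg1ip, a small membrane protein, a ratio of 1.54 each.

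**Figure D2:**
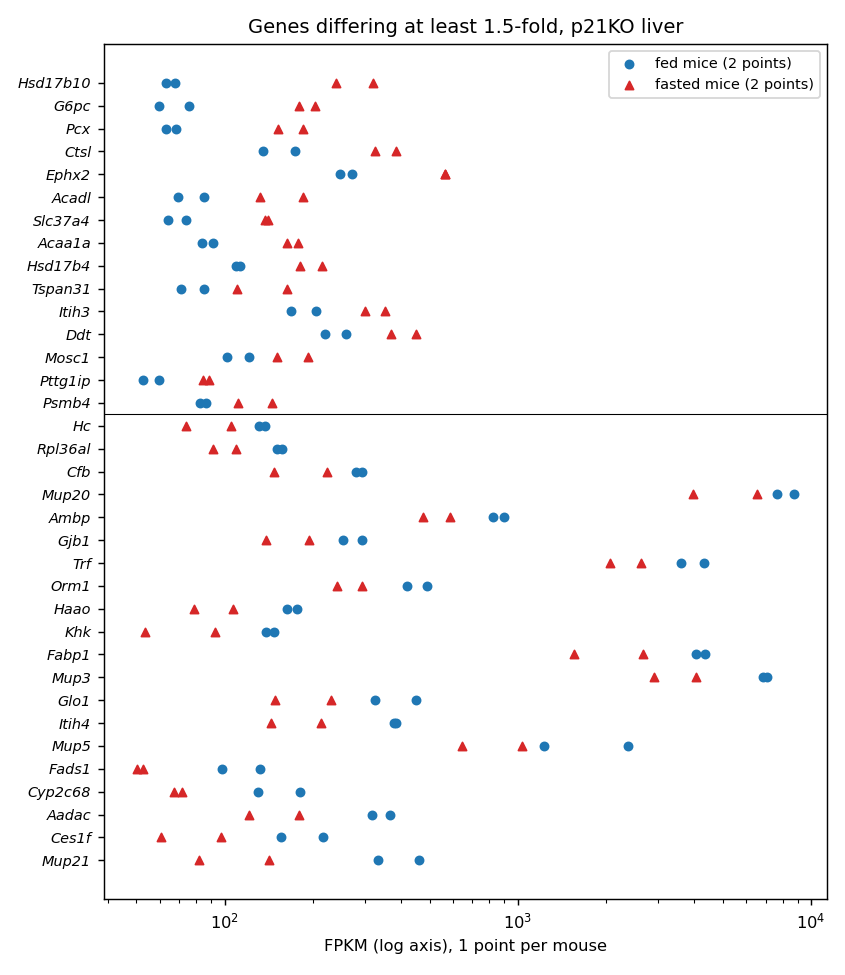
FPKM (logarithmic axis) of the 35 genes that differed at least 1.5-fold without overlap, 1 point per p21KO mouse, circles for fed and triangles for fasted, in order of their ratio. The 15 genes above the line have both triangles to the right of both circles and the 20 below it the reverse; the lower genes include the most abundant ones, such as Mup20 (up to 8772 FPKM).

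Of the 20 lower genes, 10 are in the lists of plasma proteins and major urinary proteins. Of all 172 selected genes, 23 are in the first list and 4 in the second, with Mup3 and Mup20 in both. The count of 10 depends on the scale, since 8 plasma proteins were at least 1.5-fold lower as deposited and 2 with columns scaled to their sums. The share of these lists among the lower genes was not tested. The major urinary proteins are pheromone-binding lipocalins that male mouse liver makes in very large amounts. All 4 of them that were selected, of 23 rows with such names, were at least 1.5-fold lower, and 3 of these 4 still were when columns were scaled to their sums. Mup21 held 461 and 333 FPKM in fed and 81.6 and 141 FPKM in fasted liver, the smallest ratio of all with 0.281 (log2 ratio -1.83 ± 0.46, SE). Mup3 held 7070 and 6884 FPKM fed and 2923 and 4060 FPKM fasted, a ratio of 0.500. Mup5 held 1224 and 2371 FPKM fed and 644 and 1036 FPKM fasted, and Mup20 held 7636 and 8772 FPKM fed and 3958 and 6564 FPKM fasted. Mup genes are close copies of each other that share reads, so how reads were divided between them is uncertain, and their sum may be firmer than any single value.

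Of 116 rows in the list of plasma proteins, which includes Mup3 and Mup20, 23 were selected, of which 8 were at least 1.5-fold lower and 1 higher. The median ratio of the 23 was 0.834, but it was 1.00 with columns scaled to their sums, when 2 remained at least 1.5-fold lower. Trf, transferrin, the iron carrier of blood, held 4312 and 3596 FPKM fed and 2059 and 2623 FPKM fasted, a ratio of 0.592. Orm1, the acute-phase protein orosomucoid, held 419 and 489 FPKM fed and 294 and 242 FPKM fasted, a ratio of 0.589. Ambp, the precursor of a microglobulin and of the protease inhibitor bikunin, held 896 and 821 FPKM fed and 475 and 588 FPKM fasted, a ratio of 0.619. In each of these genes the fed and the fasted pair did not overlap. Of the complement genes, Cfb (0.645) and Hc (0.665) were lower without overlap, as was Cfi with a ratio just short of the limit (0.676), and C3 overlapped with 1043 and 852 FPKM fed and 749 and 998 FPKM fasted. Not all secreted proteins were lower: Serpina1b, an antitrypsin, held 3648 and 3671 FPKM fed and 3229 and 3996 FPKM fasted, and Apob, the scaffold of very-low-density lipoprotein, was 1.19-fold higher without overlap. Itih4 and Itih3, neighbouring genes for heavy chains of the inter-alpha-trypsin inhibitor, had ratios of 0.469 and 1.75, and the fed values of each lay near the fasted values of the other, so a fasting difference and an exchange of rows cannot be told apart here.

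**Figure D3:**
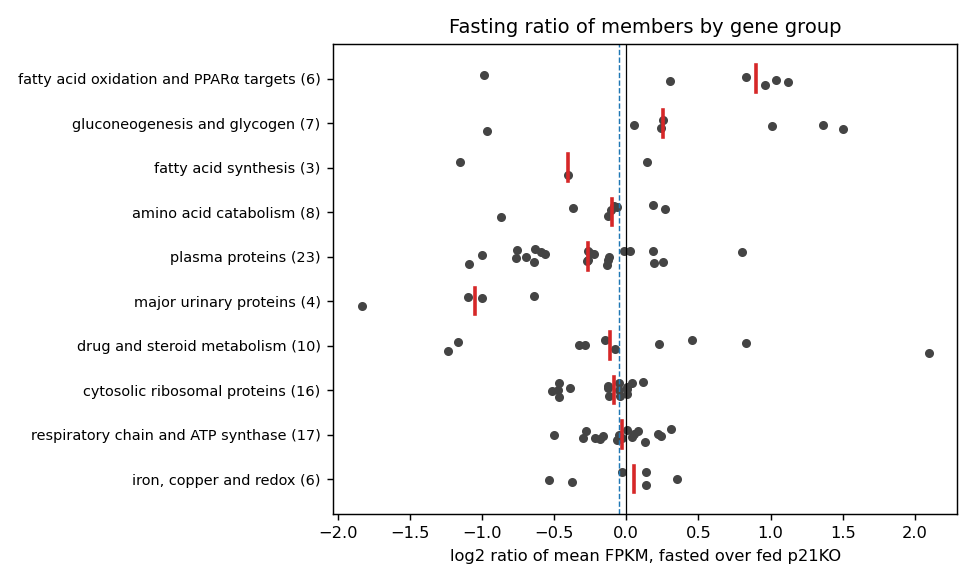
Log2 ratio of mean FPKM, fasted over fed p21KO liver, of the selected genes in 10 groups, 1 point per gene with the number of genes in brackets. Red bars are medians, the black line marks equal levels and the dashed line the median of all 172 genes; the 4 major urinary proteins all lie to the left, and 4 of 6 genes of fatty acid oxidation lie beyond 0.8 to the right.

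Of 28 rows for fatty acid synthesis 3 were selected, of which 1 was at least 1.5-fold lower. Fads1, a desaturase of polyunsaturated fatty acid synthesis, held 131 and 97.6 FPKM fed and 50.1 and 52.7 FPKM fasted, a ratio of 0.449. Its partner desaturase Fads2 held 276 and 216 FPKM fed and 167 and 205 FPKM fasted, lower without overlap with a ratio of 0.757, whereas Elovl2, the elongase of the same pathway, overlapped (1.10). Of 221 rows for drug and steroid metabolism 10 were selected, of which 2 were at least 1.5-fold higher, 2 lower and 5 overlapped. Ces1f, a carboxylesterase, was lower with a ratio of 0.424, and Cyp2c68, a cytochrome P450, held 181 and 130 FPKM fed and 67.0 and 71.5 FPKM fasted, a ratio of 0.446. On the other side of this list stood Hsd17b10, Hsd17b4 and Fmo1, a flavin monooxygenase, at 1.37-fold. Aadac, a microsomal lipid and drug esterase, held 368 and 317 FPKM fed and 121 and 179 FPKM fasted, a ratio of 0.438, and Glo1, which detoxifies methylglyoxal, held 449 and 327 FPKM fed and 148 and 230 FPKM fasted, a ratio of 0.487. Of 68 rows in the list for amino acid catabolism 8 were selected, 5 overlapped and 1 was at least 1.5-fold lower. These 8 include Asgr1, a hepatocyte surface receptor and not an enzyme of this pathway. The lower gene was Haao, a dioxygenase of tryptophan breakdown, with 176 and 163 FPKM fed and 78.4 and 107 FPKM fasted. Gjb1, the main connexin of hepatocyte gap junctions, had a ratio of 0.605 and Rpl36al, named for a ribosomal protein, a ratio of 0.651.

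In the lists for cytosolic ribosomal proteins, translation factors and the respiratory chain no selected gene differed by 1.5-fold as deposited, although 1 of the 3 translation factors (Eif1, 1.46) reached 1.5-fold on both other scales and Rpl36al, given above, is in none of these lists. Of 86 rows for cytosolic ribosomal proteins 16 were selected, with ratios from 0.700 to 1.08 and a median of 0.941 that became 1.14 with columns scaled to their sums. In 5 of the 16 the pairs did not overlap, all lower, where 21.1% of all rows were lower without overlap. Among the 5 was Rps21 with 122 and 86.9 FPKM fed and 79.6 and 66.9 FPKM fasted. Of 94 rows for the respiratory chain and ATP synthase 17 were selected, with ratios from 0.706 to 1.24 and a median of 0.979, or 1.18 with scaled columns. Over all rows, the pairs did not overlap in 18.5% that were higher and 21.1% that were lower. In 3 of the 17 the pairs did not overlap and were higher, in 4 they did not overlap and were lower, and 10 overlapped. Among these, Uqcrfs1 and Sdhd, subunits of complexes that pass electrons to and from ubiquinone, were 1.24-fold and 1.18-fold higher without overlap, and Uqcr11 was lower with a ratio of 0.706. Of the genes that remove peroxides, Cat, peroxisomal catalase, held 938 and 817 FPKM fed and 497 and 715 FPKM fasted, and Gpx1, glutathione peroxidase, held 727 and 658 FPKM fed and 437 and 632 FPKM fasted, both lower without overlap. Txn2, mitochondrial thioredoxin, was 1.28-fold higher without overlap. The 3 selected chaperones of the endoplasmic reticulum overlapped, as did the bile acid carrier Slc10a1 (1.01). No row named for the urea cycle, cytosolic chaperones, cell cycle inhibitors or the circadian clock was selected.

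Exchange between neighbouring rows was examined for each of the 35 genes. In 27 of them, 12 higher and 15 lower, no other row within 10 rows held fed values within 1.5-fold of the gene's fasted level. In the other 8 (Slc37a4, Itih3, Mosc1, Rpl36al, Mup20, Ambp, Itih4 and Ces1f) such a row was present. Rows farther than 10 away were not searched, nor were rows with only their fasted values near the gene's fed level. The search therefore does not show that the 27 genes are free of exchange. A stricter reading keeps the 44 genes with no other row of at least 50 FPKM within 10 rows. Among these, Hsd17b10 and Tspan31 were higher and Fabp1, Glo1 and Aadac lower. A reciprocal exchange was possible for 3 genes, Itih3, Itih4 and Mosc1, the last of which lies beside its paralogue Mosc2.

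The 5 WT livers were not used to choose the genes. In 63 of the 172 rows the WT values also reached 50 FPKM in every library and stayed within 2-fold in each diet group, and in the other 109 at least 1 WT library did not, so that the name and the value can disagree there. Among the 63, the fasted and fed WT livers did not overlap in 19 that were higher and 26 that were lower (30.2% and 41.3% of the 63, against 12.1% and 12.4% of all rows), and overlapped in 18. The requirement of a small spread within groups raises these shares, so they are not set against each other. Of the 63, 6 were at least 1.5-fold higher in fasted p21KO liver (Hsd17b10, Ephx2, Hsd17b4, Ddt, Mosc1 and Psmb4) and 6 lower (Mup21, Mup3, Haao, Gjb1, Ambp and Hc). All 12 differed in the same direction in WT liver without overlap, and 3 of the higher and 5 of the lower by at least 1.5-fold.

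Of these 12 genes, the following had the largest and the smallest ratios in p21KO liver. Hsd17b10 held 78.1, 74.4 and 82.4 FPKM in fed and 307 and 363 FPKM in fasted WT liver, a ratio of 4.28, the same as in p21KO liver to the digits given. Ephx2 held 266, 274 and 249 FPKM in fed and 507 and 569 FPKM in fasted WT liver, a ratio of 2.04. Hsd17b4 held 111, 113 and 128 FPKM fed and 226 and 246 FPKM fasted, a ratio of 2.01. For all 3, both fasted livers of each genotype stood above every fed liver of either genotype. Haao held 207, 210 and 184 FPKM fed and 104 and 86.4 FPKM fasted in WT liver, a ratio of 0.476. Mup21 held 306, 233 and 200 FPKM fed and 132 and 161 FPKM fasted, a ratio of 0.594 against 0.281 in p21KO liver, and Mup3 held 6269, 6492 and 5781 FPKM fed and 3862 and 4261 FPKM fasted, a ratio of 0.657 against 0.500. In Mup21 and Mup3 the fasted WT livers were below the fed ones, as in p21KO liver. Mup5 and Mup20, also lower in fasted p21KO liver, did not show this in WT liver. Mup5 held 768, 680 and 1363 FPKM in fed and 895 and 1183 FPKM in fasted WT liver, a ratio of 1.11. Mup20 held 5241, 4669 and 10291 FPKM in fed and 8424 and 5829 FPKM in fasted WT liver, a ratio of 1.06. In both rows the WT groups overlapped and the WT values did not meet the limit on the spread. Several leading genes of p21KO liver could not be followed in WT liver. The row of G6pc held 112, 105 and 138 FPKM in fed and 0.00133 and 9.10 FPKM in fasted WT liver. That of Slc37a4 held 181, 165 and 5.33 FPKM in fed and 4.71 and 9.62 FPKM in fasted WT liver, and that of Pcx at most 12.5 FPKM in any WT liver. Acadl held 76.5, 3.08 and 77.5 FPKM in fed and 1.77 and 0.996 FPKM in fasted WT liver. Acaa1a held 165 and 190 FPKM in both fasted WT livers, near its fasted p21KO level, but 87.7, 1.59 and 1.99 FPKM in the fed ones.

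Over the 63 genes the log2 ratios of both genotypes had a Pearson r of 0.869 and a Spearman rho of 0.833. These coefficients run over genes rather than mice, genes are not independent of each other, and these were chosen for a small spread. Cat and Gpx1, lower without overlap in p21KO liver, had ratios of 1.01 and 1.06 in WT liver. Catalase held 736, 764 and 803 FPKM in fed and 751 and 793 FPKM in fasted WT liver, and Gpx1 576, 670 and 617 FPKM in fed and 674.5 and 645.5 FPKM in fasted WT liver. The differences between genotypes for these 2 genes had no adjusted p under 0.05.

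**Figure D4:**
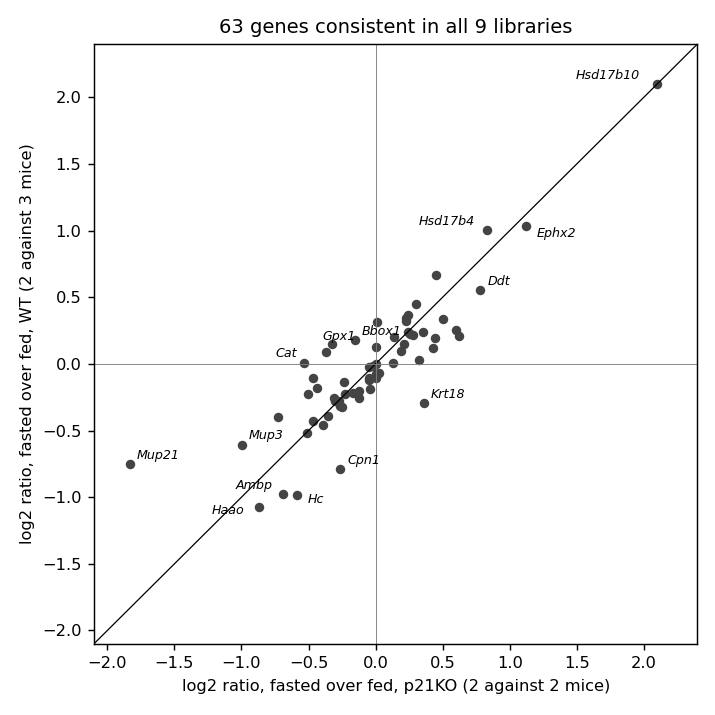
Log2 ratio of mean FPKM, fasted over fed, in p21KO liver (horizontal axis, 2 against 2 mice) and WT liver (vertical axis, 2 against 3 mice) for the 63 genes consistent in all 9 libraries. Points near the diagonal had equal ratios in both genotypes, such as Hsd17b10 (2.10 on both axes); Mup21, Cat, Gpx1 and Krt18 lie off it.

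Across all 14014 rows, a limma fit of the 4 groups on log2(FPKM + 1), with Benjamini-Hochberg adjustment, called 95 rows (0.678%) for fasting in p21KO liver at an adjusted p under 0.05. None of the 172 genes was among them, and 5 had an unadjusted limma p under 0.05, beside 1029 of all 14014 rows. Nothing is read from the counts of the 172 genes, since the values of this contrast chose the genes. The fit also takes its spread from all 9 libraries, and in 109 of the 172 rows at least 1 WT library failed the limits. For Pcx the limma SE was 1.01, against 0.16 from the 4 p21KO libraries. The absence of calls therefore does not show a lack of change in p21KO liver. For fasting in WT liver limma called 70 rows (0.5%; 0.328% higher and 0.171% lower), among them 4 of the 172 genes: Ctsl, C3 and Cfb higher and Serpinf1 lower. In each of these 4 rows 1 WT diet group held at most 7.54 FPKM and the other at least 233.5 FPKM, and none belongs to the 63 genes consistent in all libraries. The log2 difference of WT Ctsl was 7.69 ± 0.53 (SE, adjusted p = 0.0025, limma), from 0.0141, 0 and 1.60 FPKM fed to 284 and 283 FPKM fasted, against 1.20 in p21KO liver. For the difference of the fasting effect between genotypes limma called 74 rows (0.528%), of which 0.328% of all rows were lower in p21KO liver, among them 3 of the 172 genes (Ctsl, C3 and Cfb). The p21KO values of these rows chose them for high levels and the fed WT values are near 0, so nothing is read from these 3 calls. Of the 63 consistent genes, limma called 0 in WT liver and 0 for the difference. In WT liver 5 of them had an unadjusted limma p under 0.05, beside 752 of all 14014 rows.

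Sorted values need no gene names and were compared over all 9 libraries. The number of rows of at least 1000 FPKM was 45 and 44 in fed and 55 and 52 in fasted p21KO liver, and 47, 47 and 46 in fed and 54 and 52 in fasted WT liver. Fasted livers of both genotypes thus had more rows at this level than any fed liver (mean difference 7.67 rows, two-sided exact permutation of diet within genotype, p = 0.0167, the smallest that 60 arrangements allow, adjusted over 8 measures p = 0.133). This difference was seen in 4 of 4 fasted livers and did not pass the adjustment. The top of the distribution was flatter in fasted p21KO liver. Its highest values were 8367 and 12343 FPKM, against 28318 and 29113 FPKM in fed p21KO liver, and its 10 highest rows held 16.7% and 19.7% of the sum, against 27.0% and 36.1%. Without the 10 highest rows the sums were 307789 and 281673 in fed and 291423 and 292659 in fasted p21KO liver and overlapped. In WT liver the highest value was 18703, 26071 and 24473 FPKM fed and 26246 and 29662 FPKM fasted. The 10 highest rows of WT liver held 20.4%, 20.6% and 27.2% of the sum fed and 23.0% and 25.1% fasted. The share of 36.1% in 1 fed p21KO liver was thus the highest of all libraries. For the other measures the exact permutation p of the diet effect was 0.133 or more.

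**Figure D5:**
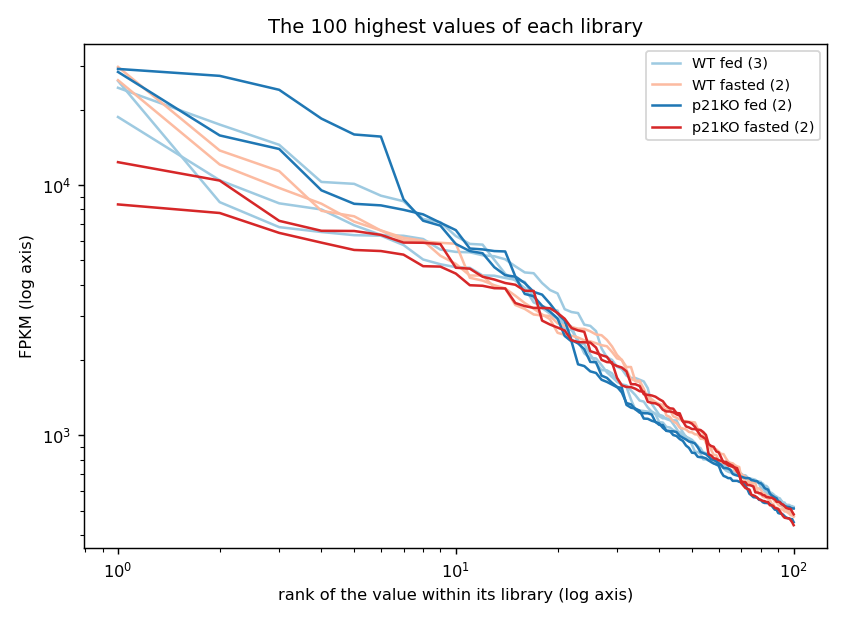
The 100 highest FPKM values of each library in falling order, rank on the horizontal axis and FPKM on the vertical axis, both logarithmic, 1 line per mouse. The fasted p21KO livers (red) begin at 8367 and 12343 FPKM, below the other 7 libraries, which begin between 18703 and 29662 FPKM, and the lines meet by about rank 100.

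The marker lists were summed over all their rows, whose names can be wrong. The 9 rows named for erythroid genes, of which 4 to 6 reached 1 FPKM, summed to 40.1 and 61.7 FPKM in fed and 80.1 and 533 FPKM in fasted p21KO liver, and the 10 rows named for endothelial genes to 45.6 and 47.3 FPKM in fed and 63.7 and 108 FPKM in fasted p21KO liver. In WT liver the endothelial sum was lower in both fasted livers (26.4 and 27.9 FPKM) than in the fed ones (124 to 168 FPKM). The 32 rows for leukocytes and Kupffer cells summed to 321 and 156 FPKM in fed and 246 and 172 FPKM in fasted p21KO liver and overlapped. The 6 cholangiocyte rows summed to 4.73 and 4.05 FPKM in fed and 5.76 and 14.3 FPKM in fasted p21KO liver, and the 20 hepatocyte rows to 21166 and 13675 FPKM in fed and 20832 and 43440 FPKM in fasted p21KO liver. Of these rows, 2 hepatocyte ones (Apob and Trf) and none of the others were among the 172 genes, and their part in the results was not tested.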

How the data were processed

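Liver RNA of 9 mice was sequenced and the authors deposited a table of FPKM, with a column for each mouse. Per the submitters' processing notes, reads were handled with Bowtie 0.12.7 and TopHat2 2.0.4 on mm10, SAMtools 0.1.16, and Cufflinks in versions 1.3.0 and 2.2.1. The study's methods name later versions of the aligners and SAMtools and another library kit than the labels do, and which apply to this table is not settled. How libraries were scaled is not given in the sources used here. FPKM keeps no counts, so the depth is unknown and intervals from counting were not computed. Column names gave the mouse in every case. The genes and gene lists were chosen with earlier results of these data known.

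Groups followed the labels. Rows were selected as stated at the opening, and nearby rows were searched within 10 rows at a tolerance of 1.5-fold. Rows of small RNAs and rows under 1 FPKM in all but 1 library were left out of the limma 3.58.1 (R 4.3.3) fit, which used log2(FPKM + 1), a trend in the variance and all 9 libraries. The fit was tested on simulated data. Sorted values were compared by an exact permutation test. Python 3.11.15, NumPy 2.4.6, pandas 2.3.3 and SciPy 1.17.1 were used. Each mouse gave 1 library, so the unit of the tests is the mouse. Where columns hold different genes on a row, limma's spread can also take in that mismatch. The limma SE of Fth1 for fasting in p21KO liver was 3.97. Its row held 688 to 900 FPKM in p21KO liver but 0.0512 FPKM in WT fed replicate 2 and 0.968 FPKM in WT fasted replicate 2.

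Named are the 12 largest and 12 smallest ratios without overlap, up to 4 genes and the most abundant one of each list, the 5 most abundant genes, those next to a limit, and Cdkn1a. Others, such as Hc, Cfb, Gjb1 and Pttg1ip, were named after their values were seen. Columns of the same replicate number share only that number. Gene positions and promoters are from RefSeq on GRCm38.p6, and all 172 names matched its gene table. Alternatives were other limits, scalings, pseudocounts, filters, a replicate block and leaving out each library.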

Additional observations from a re-analysis of the deposited data

Results flagged for a closer look

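The highest FPKM of a library was lower in both fasted than in both fed p21KO livers and higher in both fasted than in all fed WT livers, so the genotypes moved in opposite directions. The difference of the effects was -23232 FPKM (exact permutation of diet within genotype, two-sided, p = 0.0333, adjusted over 8 measures p = 0.267). Such a permutation takes fasting to have no effect in either genotype, so this p does not test for equal effects in both. The measure was listed because its directions were opposite. This difference did not pass the adjustment, and the gene behind each highest value is not identified by name.

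Bbox1, the last enzyme of carnitine synthesis, was the single gene of the 63 consistent in all libraries whose diet groups did not overlap in opposite directions in the genotypes. It held 76.7 and 78.0 FPKM in fed and 66.0 and 73.0 FPKM in fasted p21KO liver, and 75.2, 84.2 and 75.9 FPKM in fed and 90.2 and 86.9 FPKM in fasted WT liver. The log2 ratio was lower in p21KO liver by a difference of -0.33, and limma gave an unadjusted p of 0.529 for the difference.

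limma called the difference of the fasting effect (p21KO minus WT, log2 scale) for Ctsl (-6.49), C3 (-9.38) and Cfb (-6.10). In all 3 rows the fed WT livers held at most 6.24 FPKM where fed p21KO livers held at least 135 FPKM. The p21KO values chose these rows for high levels, so the calls are given as values and nothing is read from them. Whether the WT columns carry the named gene on these rows was not tested.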

How the results depend on the processing

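The number of selected genes, 172, depended on the limits: 421 at 20 FPKM, 80 at 100 FPKM, 63 when the WT libraries had to meet them too, 44 with no other abundant row nearby (added after the data were seen), and 216 to 281 with 1 library left out. Higher and lower genes, 15 and 20, became 37 and 49 at 20 FPKM, 6 and 12 at 100 FPKM, 6 and 6 in all 9 libraries, 2 and 3 with no abundant row nearby, and 7 and 8 at a ratio of 2. With columns scaled to their sums 25 were higher, with a ratio of at most 1.5 within groups 12 were lower, and with 1 library left out 25 to 29 were higher and 25 to 45 lower, since 1 library then decides a group. Scaling to column sums raised the log2 ratios of all 24 named genes by about 0.27. This shift was more than the SD in 8 of them, all higher after fasting on both scales.

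limma's counts were not stable. A replicate block gave 11 rows for p21KO, 8 for WT and 0 for the difference (973 at an unadjusted p under 0.05), and 2 selected genes in WT. Rows of at least 5 FPKM on average gave 42, 43 and 41. The libraries of p21KO alone gave 491, and a pseudocount of 0.1 gave 45 for the difference. Leaving out 1 library gave 34 to 161 for p21KO, 87 to 252 for WT, 20 to 163 for the difference and 4 to 24 selected genes in WT; without WT fasted replicate 1 the last was 24. Selected genes called for the difference, 3, were 0 with the block, 1 with robust moderation and 1 to 23 with 1 library left out (23 without WT fasted replicate 1). Same-numbered fed and fasted p21KO livers had a correlation of 0.13 of their deviations over the selected genes, and the labels pair no mice. The causes were not tested. Depth is unknown, so low rows cannot be judged.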
